A study of Mus musculus with 1111 samples.

Results

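The Gimap genes are the mouse GTPases of the immunity-associated protein family. The 8 members described here, Gimap1, Gimap3, Gimap4, Gimap5, Gimap6, Gimap7, Gimap8 and Gimap9, were found by symbol among 35583 genes. They were chosen on a measured value, the lower level of Gimap1 in plasma high than in plasma none, so that difference is a description of how the family was picked and not a test of it. Brain microglia of 3-month-old mice were sorted and sequenced 1 cell at a time with Smart-seq2, which copies transcripts at full length. The mice had received plasma proteins tagged with the amine-reactive dye NHS-Atto647N, and 20 h later each cell was sorted by the dye it held into plasma none, plasma low or plasma high. All 3 groups therefore carried the same injection and none was uninjected, and strain, sex and genotype are not given in the labels. Each library was 1 cell and no label names the animal it came from, so each group counted as 1 sample and no test or p-value between groups is given.

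Gimap proteins share a GTP-binding domain of the AIG1 type, and their genes lie side by side in mammals. They are best known in lymphocytes, where several of them sit on intracellular membranes and bear on whether a cell survives. Microglia are the resident macrophages of the brain.

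In the microglia, 4 members were read and 4 were not. Gimap1, Gimap5, Gimap6 and Gimap9 had reads, while Gimap3, Gimap4, Gimap7 and Gimap8 were listed at 0 in all 1045 cells with a column. The read members were each found in a small share of cells, and 19.5% of the 987 cells that passed the depth filter held a read of any of them. Such a cell was less frequent in plasma high, at 13.8%, than in plasma low, at 19.9%, or plasma none, at 23.7%. These shares include Gimap1, the member the choice rested on, and without it they were 10.3%, 13.1% and 15.03%.

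All members lie on chromosome 6 (GRCm38) within 123.618 kb, 6 on the plus strand and 2 on the minus strand, and each is annotated as protein-coding. In chromosome order, Gimap8 (ENSMUSG00000064262), the member with several GTP-binding domains, spans 48647234 to 48660875 on the plus strand. Gimap9 (ENSMUSG00000051124) spans 48676129 to 48679114 on the plus strand, and Gimap4 (ENSMUSG00000054435), linked to T cell death, spans 48684549 to 48692060 on the plus strand. Gimap6 (ENSMUSG00000047867), a cytosolic member known to bind the autophagy protein Gabarapl2, spans 48701582 to 48708225 on the minus strand. Gimap7 (ENSMUSG00000043931) spans 48718621 to 48724636 on the plus strand. Gimap1 (ENSMUSG00000090019), needed for the survival of mature T and B lymphocytes, spans 48739054 to 48743795 on the plus strand. Gimap5 (ENSMUSG00000043505), a lysosomal membrane protein whose loss causes lymphopenia, spans 48746197 to 48754210 on the plus strand. Gimap3 (ENSMUSG00000039264), a close relative of Gimap5, spans 48764464 to 48770851 on the minus strand. The read members do not sit together: Gimap4, listed at 0, lies between Gimap9 and Gimap6, and Gimap7, listed at 0, lies between Gimap6 and Gimap1.

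**Figure D1:**
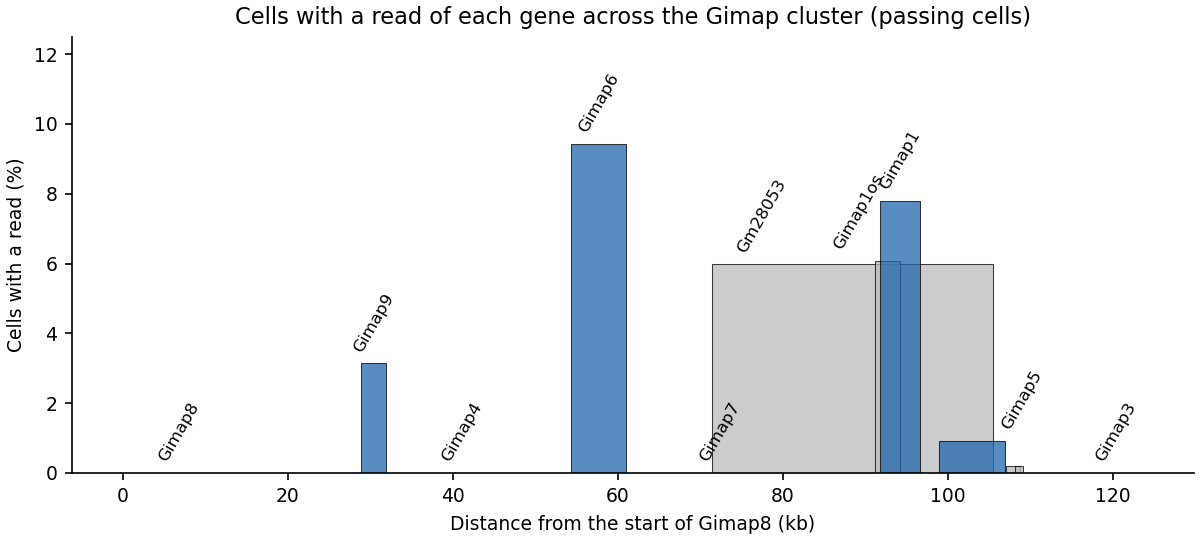
Share of the 987 passing cells with at least 1 read (y axis, %) for each gene across the cluster, drawn from gene start to gene end (x axis, kb from the start of Gimap8). Blue bars are members and grey bars are other annotated genes. Gimap6 and Gimap1 are the tallest members, Gimap9 and Gimap5 are low, and names without a bar are members listed at 0.

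The 250 bases upstream of the start are shown for the 3 members with the most reads and for Gimap4, which lies between Gimap9 and Gimap6 and was listed at 0. They come from RefSeq on GRCm38.p6, where all 8 members matched by symbol. Capitals mark GGAAGT, a motif of ETS factors such as PU.1, the macrophage regulator, and TGTGGT, the core bound by Runx factors, each searched on both strands (ACTTCC and ACCACA). The windows are chr6:48738797-48739046 on the plus strand for Gimap1, chr6:48708245-48708494 on the minus strand for Gimap6, chr6:48675885-48676134 on the plus strand for Gimap9 and chr6:48684328-48684577 on the plus strand for Gimap4.
Gimap1: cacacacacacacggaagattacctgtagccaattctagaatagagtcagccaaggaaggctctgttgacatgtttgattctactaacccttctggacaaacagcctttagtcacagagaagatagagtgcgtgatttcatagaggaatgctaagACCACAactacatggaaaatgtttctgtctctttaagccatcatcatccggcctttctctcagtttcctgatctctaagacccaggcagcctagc
Gimap6: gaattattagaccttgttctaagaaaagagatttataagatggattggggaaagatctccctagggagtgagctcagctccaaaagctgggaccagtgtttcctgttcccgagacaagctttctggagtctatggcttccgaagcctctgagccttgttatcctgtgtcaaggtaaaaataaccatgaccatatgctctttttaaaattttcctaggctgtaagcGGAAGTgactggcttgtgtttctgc
Gimap9: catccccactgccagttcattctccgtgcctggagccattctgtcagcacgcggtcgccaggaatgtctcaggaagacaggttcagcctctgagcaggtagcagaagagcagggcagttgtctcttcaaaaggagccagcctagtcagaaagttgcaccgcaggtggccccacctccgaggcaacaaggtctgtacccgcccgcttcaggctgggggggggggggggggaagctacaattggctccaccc
Gimap4: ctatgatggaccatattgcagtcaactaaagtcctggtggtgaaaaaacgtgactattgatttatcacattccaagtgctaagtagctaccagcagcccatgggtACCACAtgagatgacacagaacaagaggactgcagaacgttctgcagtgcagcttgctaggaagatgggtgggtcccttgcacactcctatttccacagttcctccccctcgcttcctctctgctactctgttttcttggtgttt
The Gimap6 window held GGAAGT with its first base at -25 from the start, the Gimap5 window held it at -216 and -44, and no other member's window held it. Over all 32851 promoter windows of this length, 19.7% held GGAAGT on either strand. TGTGGT was matched on the opposite strand at -95 in Gimap1, which was read, and also at -145 in Gimap4 and -79 in Gimap7, which were listed at 0. It was held by 14.05% of all windows. The letters TATAAA (or TTTATA), held by 12.4% of windows, were found at -219 in Gimap6 and in no other member. The Gimap9 window had the highest GC content of the 4 printed, at 61.2% with 8 CpG pairs, against a median of 52.4% and 6 CpG over all windows. A match is a run of letters and not a site.

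The depth filter kept cells with 50000 or more reads and 500 or more genes read. Of the 987 cells kept, 35.1% were plasma none, 35.6% plasma low and 29.4%, or 290 cells, plasma high. The labels also number the cells TH 1, TH 2 or TH 3 without saying what this means. Reads were summed over the cells of each group within each TH number, giving 9 sums of 21309816 to 49323522 reads. Errors below are the SD over these 3 numbers (n = 3), and no spread between animals is known. Median depth per cell was 207429 reads (none), 229931 (low) and 267143 (high). Group also went with position on the plate: plasma none took well columns 1 to 8, plasma low 9 to 16 and plasma high 17 to 23, so group and column cannot be told apart. All 10 microglia markers were read, at a summed level of 53446 to 62651 CPM (reads of a gene scaled to a common total of reads in genes). Of 14 T and NK cell markers, 11 were at 0, the T cell receptor genes Cd3e, Cd3d, Cd3g, Trac, Trbc1 and Trbc2 among them. Of the 6 B cell markers found, 4 were at 0, with Ms4a1 and Cd79a among them. The 6 neutrophil markers were all at 0, and so were 6 of 8 markers of border-associated macrophages and 4 of 6 of monocytes. Of 10 endothelial markers 3 were at 0, and of 5 red cell markers 0 were. In any sum these lists added up to at most 22.2 CPM (border-associated macrophages), 8.42 (monocytes), 29.5 (endothelial) and 4.65 (red cell).

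For each of the 4 members at 0, 0 of 987 cells allows a share of up to 0.304%, or up to 0.867%, 0.855% and 1.03% within plasma none, low and high, for cells with a read at this depth. Gimap3 is the member whose transcripts most resemble another's: 12.7% of its 36-base windows occur elsewhere in the transcripts of GENCODE M21, 290 of them in Gimap5. Reads from such windows may be split or dropped, depending on a counting step not given in the sources used here. Gimap4 and Gimap7 had no shared window at this length and Gimap8 had 0.406%. Transcripts of Gm28053 and Gimap1os, annotated genes that overlap members, were left out of this count. Gimap4 and Gimap8 were thus listed at 0 with nearly all of their sequence unique among the transcripts compared. Gm28053 is annotated over all of Gimap7, and the sequence they share was not counted, so this cannot be said of Gimap7.

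Among the read members, Gimap6 was found in 93 cells with 12789 reads, Gimap1 in 77 cells with 8129, Gimap9 in 31 cells with 3892 and Gimap5 in 9 cells with 531. To compare genes, levels were divided by the length of the exons joined over all transcripts. On that scale the mean over the 9 sums was 12.3 CPM per kb for Gimap6, 9.71 for Gimap1, 8.56 for Gimap9 and 0.443 for Gimap5. The first 3 cannot be ordered beyond their spread: Gimap6 was above Gimap1 in 4 of 9 sums, Gimap1 above Gimap9 in 4 of 9 and Gimap6 above Gimap9 in 5 of 9. Gimap1 and Gimap9 were above Gimap5 in 9 of 9 sums.

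Plasma high was set against plasma none to ask how cells that took up the most plasma protein differ from those with no signal. Gimap1 stood at 48.7, 59.8 and 29.5 CPM in plasma none for TH 1, 2 and 3, a mean of 46.03 ± 15.3 CPM (SD, n = 3). It stood at 27.8, 26.8 and 27.9 CPM in plasma low (27.5 ± 0.640) and at 31.4, 9.76 and 6.89 CPM in plasma high (16.01 ± 13.4). The TH 2 and TH 3 sums of plasma high were the lowest of the 9, while its TH 1 sum lay above the TH 3 sum of plasma none, so the groups overlapped. The log2 ratio, plasma high over plasma none on CPM with a pseudocount of 1, was -0.62, -2.50 and -1.95 in TH 1, 2 and 3, a mean of -1.69 ± 0.97. After each cell was thinned to 50000 reads the mean was -0.91, with 0.16 in TH 1, and Gimap1 no longer met the size rule described below. Pooled over all cells, Gimap1 had 46.6 CPM in plasma none (95% exact Poisson interval 45.2 to 48.1) and 16.3 in plasma high (15.6 to 17.2). These intervals cover counting error only, and the reads are PCR copies, not independent molecules.

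Gimap6 was lower in plasma low than in plasma none and varied widely in plasma high. In plasma none it had 52.9, 42.6 and 54.7 CPM (50.1 ± 6.57), and in plasma low 25.98, 30.1 and 30.7 CPM (28.9 ± 2.58). In plasma high it had 44.02, 95.5 and 11.5 CPM (50.3 ± 42.4), so that group held both the highest and the lowest of the 9 sums. The 95.5 CPM of TH 2 came from 9 cells, 1 of which gave 29.6% of the reads. On the log2 scale plasma high over plasma none was -0.26, 1.15 and -2.16, a mean of -0.42 ± 1.66 that is smaller than its SD. Leaving out TH 3 turned it to 0.44, and leaving out TH 2 gave -1.21.

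Gimap9 differed more between TH numbers than between groups. It had 22.1, 0.991 and 32.2 CPM in plasma none (18.4 ± 15.9), 15.5, 25.01 and 1.53 CPM in plasma low (14.004 ± 11.8) and 5.13, 7.64 and 16.4 CPM in plasma high (9.71 ± 5.90). The lowest sums, TH 2 of plasma none and TH 3 of plasma low, rested on 1 cell each. Plasma high over plasma none gave a mean log2 ratio of -0.24 ± 2.10, and the sign differed between TH numbers.

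Gimap5 was read in 6 plasma none cells, 3 plasma low cells and 0 plasma high cells. It had 2.12, 1.11 and 9.18 CPM in plasma none, 4.14 CPM in TH 2 of plasma low and 0 in the other sums. The 0 of 290 cells in plasma high allows a share of up to 1.03%, and plasma none had 1.73% (95% Clopper-Pearson interval 0.639% to 3.74%), and these limits, which cover counting error only, overlap.

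**Figure D2:**
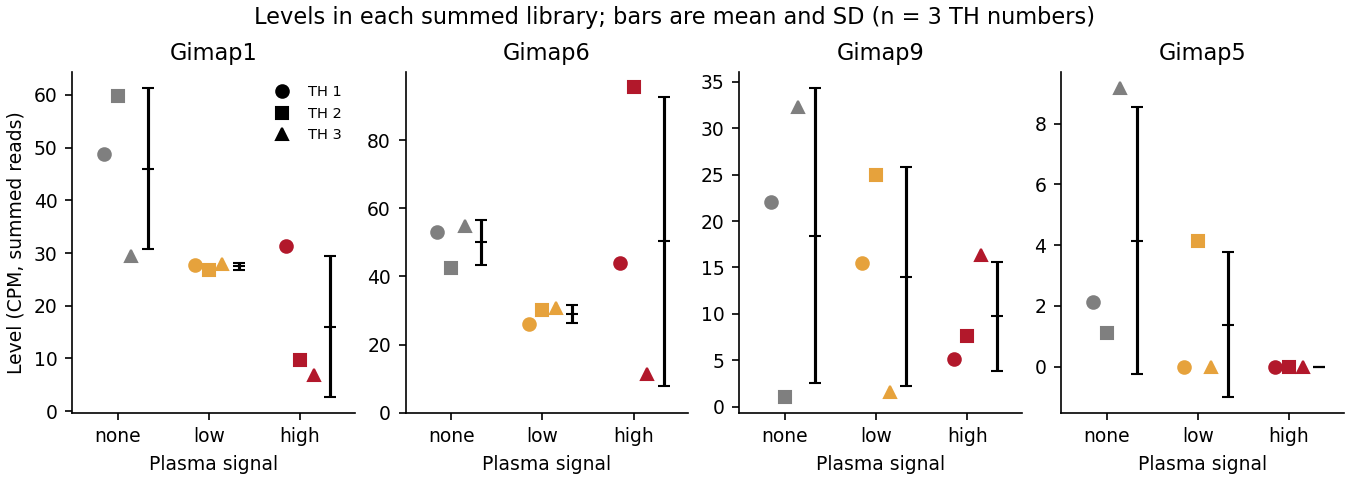
Level of the 4 read members (y axis, CPM of summed reads) in plasma none, low and high (x axis), with 1 point per TH number and the mean ± SD (n = 3) beside them. Gimap1 steps down from none to high with an overlap at TH 1, and the Gimap6 points of plasma high spread from 11.5 to 95.5 CPM.

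Summed over the family, levels were 125.8, 104.5 and 125.7 CPM in plasma none (118.7 ± 12.3), 69.3, 86.02 and 60.2 CPM in plasma low (71.8 ± 13.1), and 80.5, 112.9 and 34.8 CPM in plasma high (76.1 ± 39.3). Every sum of plasma low lay below every sum of plasma none, while plasma high overlapped both. Of single genes with a mean of at least 5 CPM, 4.69% had plasma low below plasma none without overlap. Because Gimap1 was the member the choice rested on, the sum was also taken without it. The other members then had 77.1, 44.7 and 96.2 CPM in plasma none, 41.4, 59.2 and 32.3 CPM in plasma low, and 49.1, 103.2 and 27.9 CPM in plasma high. In this sum TH 2 of plasma low lay above TH 2 of plasma none, so those groups overlapped. For that sum plasma high over plasma none gave log2 ratios of -0.64, 1.19 and -1.75 (mean -0.40 ± 1.48). The sum without Gimap1 thus showed no direction beyond the spread over TH numbers. Of the read members in it, Gimap5, read in 9 cells, was lower in 3 of 3, while Gimap6 and Gimap9 had no shared sign.

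A gene met the size rule when its mean log2 ratio was at least 1 in size with the same sign in 3 of 3 TH numbers, its mean level was at least 20 CPM and at least 10% of the cells in 1 group had a read. In plasma high against plasma none, 2 of 8 members, Gimap1 and Gimap6, passed the level and cell filters, and 1, Gimap1, met the rule in the lower direction. Of the 5534 genes that passed those filters, 2.06% met it as lower and 5.15% in either direction. Gimap1 ranked 5 by size among those lower genes, which is the value it was chosen for, and nothing is read from it. Its share of cells sat at the filter's edge, with 10.4% of plasma none against the 10% needed. Among the members with reads, 2 were lower in 3 of 3 TH numbers, Gimap1 and the sparse Gimap5, and 0 were higher. For genes with a mean of at least 5 CPM, where Gimap5 does not belong, 14% were lower in 3 of 3. The median log2 ratio over the 4 read members was -1.06, also with Gimap5 set at its bound of 3 reads, and -0.42 without Gimap1. Over all genes with a mean of at least 5 CPM it was 0.03.

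Plasma low against plasma none asks whether a weaker plasma signal goes with the same differences. These comparisons share the plasma none cells, so their values are given side by side and not as separate support. Gimap1 had log2 ratios of -0.79, -1.13 and -0.08 (mean -0.67 ± 0.54) and Gimap6 of -0.999, -0.49 and -0.81 (mean -0.77 ± 0.26). Both members were lower in 3 of 3 TH numbers, and for both all 3 sums of plasma low lay below all 3 of plasma none. Among genes with a mean of at least 5 CPM, 12.2% were lower in 3 of 3 and 4.69% had no overlap in that direction. For Gimap1 this depended on the processing: thinning gave a mean of -0.16 with 0.14 in TH 1 and 0.03 in TH 3, the mean over cells gave -0.22 with 0.12 in TH 1, and leaving out the outermost wells gave 0.42 in TH 1. No member met the size rule in this comparison, against 1.04% of genes tested as lower. Gimap9 had a mean log2 ratio of -0.16 ± 3.72. The family sum gave -0.85, -0.28 and -1.05 (mean -0.73 ± 0.40), and the median over the 4 read members was -0.72. Without Gimap1 the sum gave -0.88, 0.40 and -1.55, with no shared sign and a mean (-0.68 ± 0.99) smaller than its SD. The median over the read members other than Gimap1 was -0.77.

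In plasma high against plasma low, which compares cells with more and less of the signal, no member met the size rule, against 3.28% of genes tested. No member was lower in 3 of 3 TH numbers, against 12.9% of genes with a mean of at least 5 CPM. Gimap1 gave 0.17, -1.37 and -1.87 (mean -1.02 ± 1.06), Gimap6 gave 0.74, 1.63 and -1.34 (mean 0.34 ± 1.53), and Gimap9 had a mean of -0.08 ± 2.48. In this comparison no member passed the level and cell filters, since none was read in 10% of the cells of either group.

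**Figure D3:**
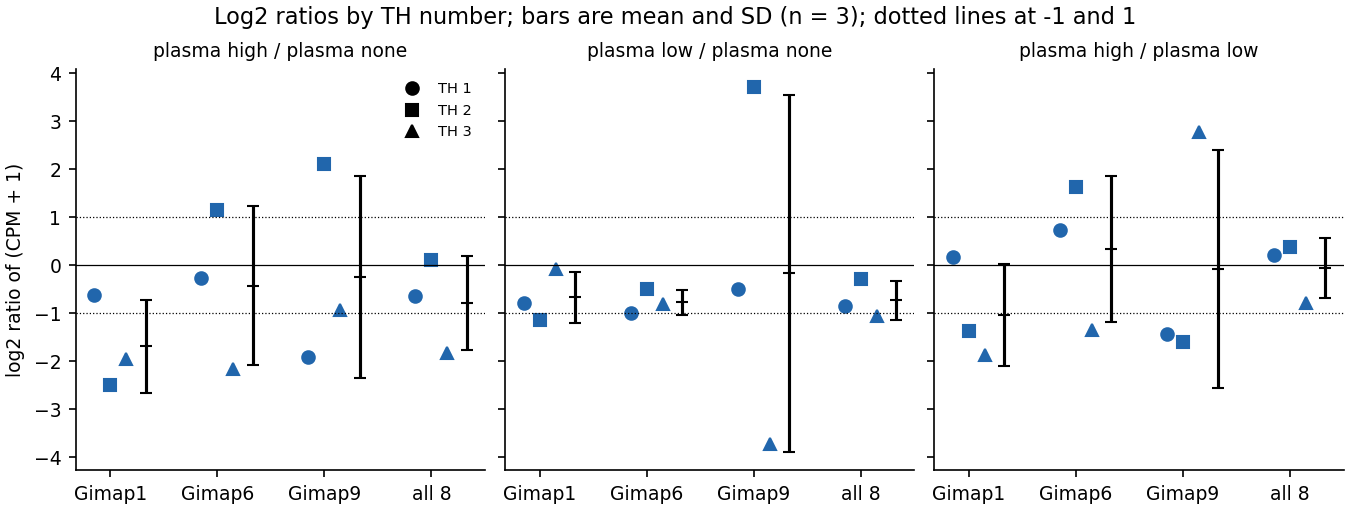
Log2 ratio of CPM + 1 (y axis) for Gimap1, Gimap6, Gimap9 and the summed family (x axis) in the 3 comparisons, with 1 point per TH number and the mean ± SD (n = 3). The points of Gimap1 are all below 0 against plasma none, and those of Gimap6 and Gimap9 fall on both sides of 0 for plasma high against plasma none.

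Counting cells in place of reads gave less weight to the few cells with many reads. Of the plasma none cells 36 had a Gimap1 read, which is 10.4% (95% Clopper-Pearson interval 7.39% to 14.1%). The gene was read in 28 cells of plasma low, 7.98% (5.37% to 11.3%), and in 13 of plasma high, 4.48% (2.41% to 7.54%). By TH number the shares were 9.48%, 11.5% and 10.3% in plasma none, 9.32%, 8.55% and 6.03% in plasma low, and 4.95%, 6.25% and 2.15% in plasma high. All 3 shares of plasma none lay above all 3 of plasma high, as they did for 1.27% of genes read in 5% to 20% of cells. Plasma none was above plasma low and plasma low above plasma high in 3 of 3 TH numbers. After each cell was thinned to 50000 reads, the shares were 9.54%, 7.41% and 4.14%, in the same order in 3 of 3, as for 0.215% of genes. With all reads, 6 of the 5746 genes in that range, or 0.104%, had this order in 3 of 3: Gimap1, Gm28053, Gon4l, Pigv, Sap130 and Zfp119b. After thinning 12 genes had it, and Gimap1 and Gon4l were the only genes on both lists. Of the 6 genes, Gm28053 is annotated over Gimap1. Gimap1 itself was chosen on plasma high against plasma none, so its place here is not independent of the choice.

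The share of cells with Gimap6 was 11.3% for plasma none, 8.55% for plasma low and 8.28% for plasma high. Its share was below that of plasma none in 3 of 3 TH numbers in both other groups, and the differences for plasma high were -1.18, -0.36 and -7.66 percentage points. The last of these came from 4 cells of plasma high against 14 of plasma none. Among genes read in 5% to 20% of cells, 4.63% had plasma none above plasma high in 3 of 3. The like share for plasma none above plasma low was not counted. Gimap9 was read in 2.89%, 3.70% and 2.76% of the groups in the same order, with no shared direction over TH numbers.

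Any member was read in 82 cells of plasma none, 23.7% (19.3% to 28.5%). The number was 70 cells of plasma low, 19.9% (15.9% to 24.5%), and 40 of plasma high, 13.8% (10.04% to 18.3%). By TH number this was 24.1%, 21.2% and 25.6% in plasma none, 23.7%, 20.5% and 15.5% in plasma low, and 15.8%, 16.7% and 8.60% in plasma high. All 3 shares of plasma high lay below all 3 of plasma none, while TH 1 and TH 2 of plasma high lay above TH 3 of plasma low. Of single genes read in 5% to 20% of cells, 1.27% had plasma high below plasma none in this way. The family share joins 4 read members, so that share of single genes is not a like measure. The family share counts Gimap1 and is not independent of the choice. Plasma high minus plasma none was -8.30, -4.57 and -17.0 percentage points (mean -9.97 ± 6.40), and -9.56 ± 6.93 after thinning.

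Without Gimap1, any of the other members was read in 15.03% of plasma none (11.4% to 19.2%), 13.1% of plasma low (9.76% to 17.1%) and 10.3% of plasma high (7.09% to 14.4%). The TH shares were 15.5%, 11.5% and 17.9% in plasma none, 15.3%, 14.5% and 9.48% in plasma low, and 11.9%, 11.5% and 7.53% in plasma high. Plasma high was under plasma none in 3 of 3, by very little in TH 2, and plasma low was above plasma none in TH 2. TH 1 of plasma high lay above TH 2 of plasma none, so those groups overlapped. The intervals, which cover counting error only, overlap, and the TH shares of the 3 groups overlap too.

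**Figure D4:**
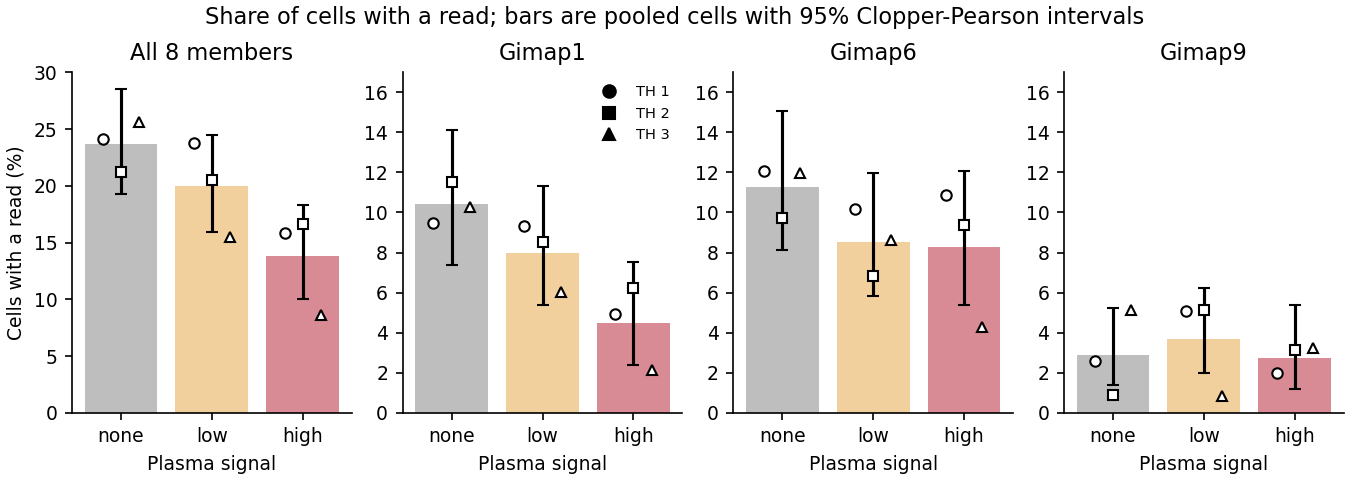
Share of cells with a read (y axis, %) of any member, Gimap1, Gimap6 and Gimap9 in each group (x axis). Bars are pooled cells with 95% Clopper-Pearson intervals for counting error only, and open symbols are the 3 TH numbers. The share for Gimap1 goes from 10.4% to 4.48% and for any member from 23.7% to 13.8%.

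In the cells that had a read, the medians of Gimap1, Gimap6 and Gimap9 were each lowest in plasma low and did not fall in the order of the plasma signal. The median level of Gimap1 in such cells was 368.2, 295.5 and 344.7 CPM from plasma none to plasma high, with a median of 70, 66 and 70 reads. For Gimap6 the medians were 468.1, 300.8 and 363.2 CPM, and for Gimap9 578.8, 271.9 and 289.8 CPM. Few cells rested on a single read: 1 of 36 for Gimap1 in plasma none, 2 of 28 in plasma low and 0 of 13 in plasma high. A single cell gave 30.8% of all Gimap1 reads of plasma high, and in TH 3 of that group 1 of 2 cells gave 98.8%. Fewer cells with the transcript and less transcript per cell cannot be told apart in the summed levels.

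**Figure D5:**
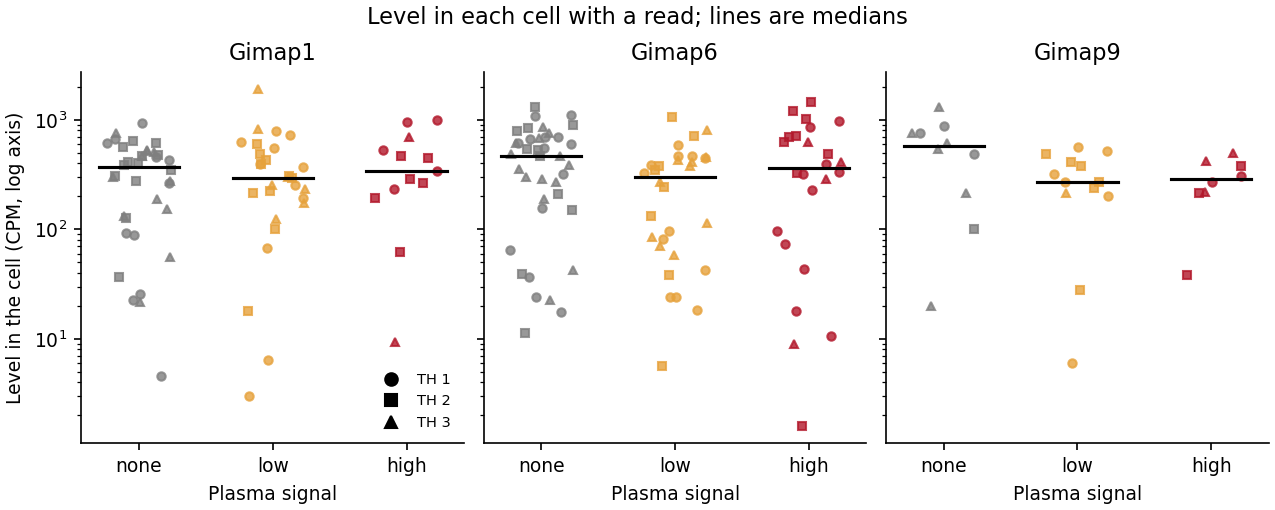
Level of Gimap1, Gimap6 and Gimap9 in each cell with a read (y axis, CPM, log axis) by group (x axis), with 1 symbol per cell shaped by TH number and a line at the median. The Gimap1 medians of 368.2, 295.5 and 344.7 CPM lie close together, and plasma high has the fewest points.

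Members were mostly read in different cells. Of all passing cells 17.6% had reads of 1 member, 18 cells had 2 members and 0 had 3 or more. Gimap1 and Gimap6, the most often read pair, were both read in 10 cells. Gimap6 was read in 12.99% of the cells with Gimap1 and in 9.12% of those without, and the Pearson r of log2(CPM + 1) over 987 cells was 0.04. Gimap1 and Gimap9 shared 1 cell, Gimap6 and Gimap9 shared 4, and Gimap1 and Gimap5 shared 2. In counts this sparse a weak r is no finding.

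Cells with and without a Gimap read had like microglial markers, at a median of 58216 and 57091 CPM summed over the list. They had a median of 267552 and 228239 reads. At least 1 T or NK cell marker had a read in 15.1% of the cells with a Gimap read and 16.5% of those without, and nearly all of that list's level (99.3%) was Il7r. For B cell markers the shares were 13.5% and 9.56%, with 99.97% of the level in Cd79b, and for endothelial markers 14.6% and 11.4%, with 87.3% of the level in Pecam1. Of the 99 cells with Cd79b, 26 had a Gimap read, as had 19 of the 90 with Pecam1. So had 7 of the 23 with Egfl7, 4 of the 8 with Kdr and 1 of the 2 with Cdh5. These shares lay above the 19.5% of all passing cells, while the share of the cells with Il7r lay below it. No cell with Ebf1, Lck, Lat, Flt1, Esam or Tie1, each read in at most 3 cells, had a Gimap read. The T cell receptor genes, Ms4a1 and Cldn5 had no read in any cell. No cell with a Gimap read had reads of 3 or more markers of T, B or endothelial cells, and 3 had 2 endothelial markers. The part of these other markers in the Gimap values was not tested.

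Annotated genes overlap Gimap1, and their reads were found in nearly the same cells. Gimap1os, an antisense gene, spans 48738346 to 48741444 on the minus strand over the start of Gimap1, and Gm28053 spans 48718607 to 48752644 on the plus strand over Gimap7, Gimap1 and part of Gimap5. Gimap1os was read in 60 cells, all of which had Gimap1 reads, and Gm28053 in 59, of which 3 lacked them. The Gimap1os reads came to 20.0% of the Gimap1 reads, were equal to them in 12 cells and above them in 3. Smart-seq2 does not mark strand, so reads of Gimap1 and Gimap1os cannot be told apart where they overlap. With the Gimap1os reads taken off in each cell, the log2 ratio of Gimap1 for plasma high against plasma none was -1.96. Restricting to the cells without a Gimap1os read gave -1.73 ± 2.67, with 1.24 in TH 1. This value rests on 17 cells with Gimap1, which held 976 of its reads. Gimap1os itself had a mean log2 ratio of -0.33 ± 1.04, and Gm28053 had -1.25 ± 0.34.

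The genes around the cluster were described in the same way. Of 27 other genes listed within 250 kb of the outermost members, 16 had reads and 8 had a mean of at least 5 CPM. In plasma high against plasma none 1 of these 8 was lower in 3 of 3 TH numbers and 2 were higher, beside 14% and 15.3% of all genes at that level, and their median log2 ratio was 0.06. Repin1, a zinc finger gene, was the lower one, at 27.9 ± 3.44 CPM in plasma none and 14.99 ± 1.33 in plasma high (log2 ratio -0.85 ± 0.27). Tmem176b and Tmem176a, membrane proteins of myeloid cells on the Gimap3 side, were the higher ones. Tmem176b stood at 448 ± 117.6 CPM in plasma none and 717 ± 114.1 in plasma high (0.70 ± 0.19), and Tmem176a had a log2 ratio of 0.67 ± 0.46.

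Lists of genes related to what Gimap proteins are known for were described in the same comparison, by genes with a mean of at least 5 CPM. Of the interferon-inducible GTPases, another family of immune GTP-binding proteins, 7 reached that level, 2 were lower in 3 of 3 and 1 was higher, and the median log2 ratio was -0.44. Igtp was lower, at 47.4 ± 15.8 CPM in plasma high against 95.4 ± 9.88 CPM in plasma none (plasma low had 95.7 ± 11.4), with a log2 ratio of -1.05 ± 0.60 that met the size rule. The other lower gene was Gbp3, with -1.04 ± 0.78, and the higher one was Gbp9, with 0.89 ± 0.64. Gbp3 was read in 3.85% of cells and Gbp9 in 4.36%, and neither passed the level and cell filters. In the Bcl2 family, which sets the threshold for apoptosis, 13 genes reached the level, 1 was lower and 0 were higher in 3 of 3, and the median was 0.24. Bcl2l1, which protects cells from apoptosis, was the lower one, at 820 ± 99.1 CPM in plasma none and 508 ± 15.5 in plasma high (-0.68 ± 0.20), and Mcl1, another such protein, had 0.50 ± 0.54.

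For the Atg8 family and its conjugation genes, which build autophagosomes, 11 genes reached the level, 0 were lower and 1 was higher in 3 of 3, and the median log2 ratio was 0.37. Gabarap was the higher one, at 0.44 ± 0.34, and among genes with a mean of at least 20 CPM the highest value was 1.13 ± 1.11 for Atg16l1 and the lowest -0.31 ± 1.08 for Atg5, neither with 1 sign in 3 of 3. Gabarapl2, the Gimap6 partner, had 46.5 ± 16.2 CPM in plasma high against 54.5 ± 21.9 in plasma none (-0.21 ± 0.22); it was named for that link and not for its rank. Of the septins, GTPases of the cytoskeleton, 5 reached the level, 1 was lower and 2 were higher, the median was 0.25, and Sept8 met the size rule as higher with 1.19 ± 0.46. The other higher septin was Sept11, with 0.62 ± 0.37, and the lower one was Sept9, with -1.25 ± 0.91. Sept9 was read in 2.33% of cells and did not pass the level and cell filters. Over all genes at that level, 14% were lower and 15.3% higher in 3 of 3, with a median of 0.03.

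Among the genes whose level over the 9 sums was most like that of Gimap1 were Smox, a spermine oxidase (Pearson r 0.93 of log2(CPM + 1)), Sipa1l2 (0.89), Cdca4 (0.88) and Anxa7 (0.87). They were taken from 5430 genes with a mean of at least 20 CPM, read in 10% or more of any group's cells and not named as predicted or clone genes. For the summed family the closest were Pdcd4, an inhibitor of translation (0.95), Fam32a (0.92), Cpsf2 (0.91), Fam50a (0.89) and Vsir (0.89). The sums share 3 groups and 3 TH numbers, so 9 points are few and these values describe likeness only.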

How the data were processed

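Full-length single-cell libraries of sorted mouse microglia were measured, 1 cell per library. The authors deposited 1 count table per TH number, read here as counts per gene and cell; in 1 column 2 values were not whole, and these deposited expected counts were rounded. Per the file headers, the columns of TH 2 and TH 3 came from alignments reduced to top hits, and those of TH 1 carry no such note. Per the submitters' processing notes, bcl2fastq, Trim Galore, STAR 2.5.3a, Seurat and mm10 were used, in no stated role or order. Which program counted the reads, and whether strand was used, is not given in the sources used here. Of 1111 labelled cells, 1045 matched a column and 66 were not analysed here; 1045 columns of standard deviations were not used. No doublet caller was run, because cells were sorted singly into wells.

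Cells with at least 50000 reads and 500 genes (987 cells) were summed by group and TH number. Sums were scaled by TMM (edgeR 4.0.16, R 4.3.3), and log2 ratios used a pseudocount of 1 CPM within each TH number. No model was fitted between groups. The calculation was tested on simulated sums whose changed genes had higher mean levels than any member. Sums and not cells were simulated, so this does not cover genes read in few cells. Shares carry 95% Clopper-Pearson intervals, and a share of 0 is limited at 3 counts. GENCODE M21 (GRCm38) gave positions, and 99.6% of 35546 shared IDs had identical coordinates. Alternatives covered scaling, pseudocount, cell filters, thinning, wells, top cells and left-out TH numbers. All members are named; from each related list and the flanking genes, the largest rise and fall with a mean of at least 20 CPM, and the 5 genes most like Gimap1 and the family, of which 1 is not reported here. Tmem176a, Gabarap, Gabarapl2, Gbp3, Sept9 and Sept11 fall outside that rule. Members and lists were chosen with earlier results of these data known.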

Additional observations from a re-analysis of the deposited data

How the results depend on the processing

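Log2 ratios were formed within each TH number, and no test between groups was made, so no block was fitted. Over 15 alternatives the log2 ratio of Gimap1 for plasma high against plasma none stayed negative, from -2.63 without the top cell of each sum to -0.91 after thinning. Within TH 1 it was 0.16 after thinning and -0.03 as the mean over cells, and leaving out TH 1, 2 or 3 gave -2.22, -1.29 and -1.56. The ratios with the Gimap1os reads taken off, or in cells without them, were chosen after seeing the data. The family ratio ran from -1.23 to -0.26 over 13 alternatives. The number of members meeting the size rule in that comparison was 0 with no cell filter, where Gimap1 was read in 9.73% of plasma none, and 0 after thinning, where it was read in 9.54% and also missed the size and the shared sign. Leaving out TH numbers gave 1 to 2, with 2 without TH 2. The number lower in every TH number, 2 in the reported values, was 1 with 100000 reads and 1000 genes per cell, 1 without the top cell and 1 after thinning, and 2 to 4 with a TH number left out. For plasma low against plasma none, 1 member met the size rule as the mean over cells, after thinning and without the outermost wells. There Gimap6 had -1.05 after thinning and -1.07 without those wells. Gimap1 had -0.16 after thinning and -0.22 as the mean over cells. The number lower in every TH number was 1 as the mean over cells and after thinning, and 2 to 4 with a TH number left out, with 4 without TH 2. For plasma high against plasma low it was 1 as the mean over cells, without the top cell and without the outermost wells, and 0 to 1 with a TH number left out. The cause of these changes was not tested, other than that fewer TH numbers make a shared sign easier to reach. Shares of cells with a Gimap read ran from 21.9% to 24.9% in plasma none, 17.7% to 22.1% in plasma low and 12.2% to 16.3% in plasma high. Gimap5 and Gimap9 rest on 9 and 31 cells.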
